A study of Macaca mulatta with 6 samples.

Results

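The eosinophil granule and receptor genes described here are EPX, PRG3, PRG2, IL5RA and ALOX15, a set defined by gene name. Rows of the count table were matched to them by gene symbol, and 4 of the 5 were found among 32386 rows. No row was paired with the symbol PRG2, so PRG2 was not analysed here. All 4 matched genes passed the filter on low counts, as did 13768 genes in all.

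Eosinophils are granulocytes that mature in bone marrow under interleukin-5, interleukin-3 and GM-CSF. Their precursors make and store cationic granule proteins, among them a peroxidase and the major basic proteins, well before the cells leave the marrow. The α chain of the interleukin-5 receptor marks commitment to the lineage, whereas 15-lipoxygenase is an enzyme of mature eosinophils and also of macrophages exposed to interleukin-4 or interleukin-13.

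The RNA came from 6 single rhesus macaque colonies of the granulocyte-macrophage type (CFU-GM). In 3 of them the label was TET2 uniallelic (UA, genotype TET2+/-, with a predicted loss-of-function mutation) and in the other 3 it was TET2 wild type (WT). All 6 grew for 14 days in semi-solid MethoCult medium from single CD34+ bone marrow cells, taken 15 months after autologous transplantation of CD34+ cells treated with CRISPR/Cas9, so both groups descend from edited and transplanted grafts. Each genotype was read from part of the picked colony. The TET2 enzyme converts methylated cytosine to its oxidized forms, and the series asked how colonies with and without its mutation differ in expression. How many animals the colonies came from is not stated in the labels, so the p-values reflect only how far these libraries differ, and some of that spread may be technical.

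Total counts ranged from 6334264 to 17684447 in UA and from 10574104 to 25485143 in WT libraries. TET2 itself had 231 ± 6.65 CPM in UA and 93.8 ± 14.9 CPM in WT libraries (SD, n = 3 each), which does not check the labels, because no allele was read here. CPM here means counts per 1000000 counts of a library whose total is first corrected by its TMM factor. The UA libraries lay much closer to each other than the WT libraries did. Among genes with at least 100 counts in a group, the median chi-square per degree of freedom between libraries was 3.24 in UA and 21.0 in WT, where counting error alone gives about 1. WT replicate 1 stood apart from the other WT libraries: the same measure was 22.9 between WT replicates 1 and 2, 22.8 between WT replicates 1 and 3 and 5.37 between WT replicates 2 and 3. Between pairs of UA libraries it was 1.95 to 2.39. Separate colonies and repeat libraries of 1 RNA cannot be told apart for the UA group. Values with the UA libraries summed to 1 sample are therefore given beside the members. Elsewhere they are given where they change a call or a count by over 1.5 times. Genes named after their values were seen were not checked in this way. Of the 13768 genes tested, 66% were called at an edgeR adjusted p under 0.05, with 34.6% higher and 31.4% lower in UA. The median log2 fold change of all genes was 0.12.

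EPX encodes eosinophil peroxidase, the granule enzyme that makes hypobromous acid, and it was far higher in UA. It had 910.7, 879.5 and 840.6 CPM in UA replicates 1 to 3, against 1.46, 3.54 and 3.71 CPM in WT replicates 1 to 3. The groups did not overlap, and the lowest UA library stood far above the highest WT library. The means were 877 ± 35.1 CPM in UA and 2.90 ± 1.25 CPM in WT (SD, n = 3 each), a 302-fold ratio of means. On the log2 scale the change was 8.31 with an SE of 0.32 (edgeR adjusted p = 3.28e-08), and 85 of all genes tested had a larger one. The WT values rest on few reads, with 32, 37 and 44 counts, whereas the UA libraries held 16804, 9147 and 5692. With the UA libraries summed the log2 fold change was 8.33 (edgeR adjusted p = 1.22e-08). The authors' deposited table places EPX on chromosome 16, bases 31452504 to 31463242. It gives no build, and Mmul_8.0.1 is the build of the submitters' processing notes. No other entry of that table overlaps it.

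PRG3 encodes a homolog of major basic protein that is stored in eosinophil granules, and it was higher in UA as well. It had 505.6, 526 and 467 CPM in UA replicates 1 to 3, against 16.5, 6.50 and 9.94 CPM in WT replicates 1 to 3. Again the groups did not overlap. The means were 499 ± 30.1 CPM in UA and 10.99 ± 5.10 CPM in WT (SD, n = 3 each), a 45.4-fold ratio of means or 5.47 on the log2 scale (SE 0.31, edgeR adjusted p = 2.66e-07). With the UA libraries summed it was 5.52 (edgeR adjusted p = 2.48e-07). WT replicate 1 was the highest WT library for PRG3 and the lowest for EPX, and without it the log2 fold change was 5.89 for PRG3 and 7.89 for EPX. PRG2 encodes major basic protein itself and is the closest relative of PRG3. Whether reads of PRG2 were counted under PRG3 was not tested, and the PRG3 values are uncertain to that extent.

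ALOX15 encodes arachidonate 15-lipoxygenase, which oxygenates arachidonic acid and membrane phospholipids. Its level was 133.4, 139 and 134 CPM in UA replicates 1 to 3, against 9.78, 15.7 and 19.0 CPM in WT replicates 1 to 3. Among the 4 genes it had the smallest fold, at 9.14 between means of 136 ± 3.28 CPM in UA and 14.8 ± 4.69 CPM in WT (SD, n = 3 each), and the groups did not overlap. Its change on the log2 scale was 3.20 with an SE of 0.24 (edgeR adjusted p = 1.79e-06), and 3.21 with the UA libraries summed (edgeR adjusted p = 2.8e-05). The UA libraries differed by no more than counting error for this gene, with a chi-square per degree of freedom of 0.92, whereas the WT libraries had 26.2. For EPX the same measure was 14.4 in UA and 10.2 in WT, and for PRG3 14.4 in UA and 32.7 in WT. Where libraries differ beyond counting error, this measure also grows with the counts. EPX had 31643 counts in UA and 113 in WT, so its values do not compare relative spread between the groups. Relative to the mean, EPX varied less in UA, with an SD of 35.1 around 877 CPM, against 1.25 around 2.90 CPM in WT. The authors' deposited table places ALOX15 at bases 4540760 to 4555726 of chromosome 16, far from EPX.

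IL5RA encodes the α chain of the interleukin-5 receptor, the subunit that binds the cytokine. Its transcript was low in UA and not detected in WT. UA replicates 1 to 3 held 92, 30 and 38 counts, or 4.99, 2.88 and 5.61 CPM, against 0 counts in all 3 WT libraries. A count of 0 allows up to 0.137, 0.287 and 0.253 CPM in WT replicates 1 to 3, taking 3 counts as the limit, and these limits cover counting error only. Against 3 counts over the WT group, IL5RA was at least 66.2-fold higher in UA, and it was called higher in UA (edgeR adjusted p = 8.67e-05, and 0.00195 with the UA libraries summed). Without WT replicate 1, the deepest library, the bound was 32.9-fold. IL5RA passed the filter through the UA libraries alone, so a gene such as this had to differ once tested. The authors' deposited table places it at bases 63473993 to 63519249 of chromosome 2.

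For all 4 genes every UA library lay above every WT library, which held for 39.2% of all genes tested. For IL5RA, with no counts in WT, this followed from passing the filter and is no separate result. In bulk libraries such as these, more cells of a type and more RNA per cell cannot be told apart.

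**Figure D1:**
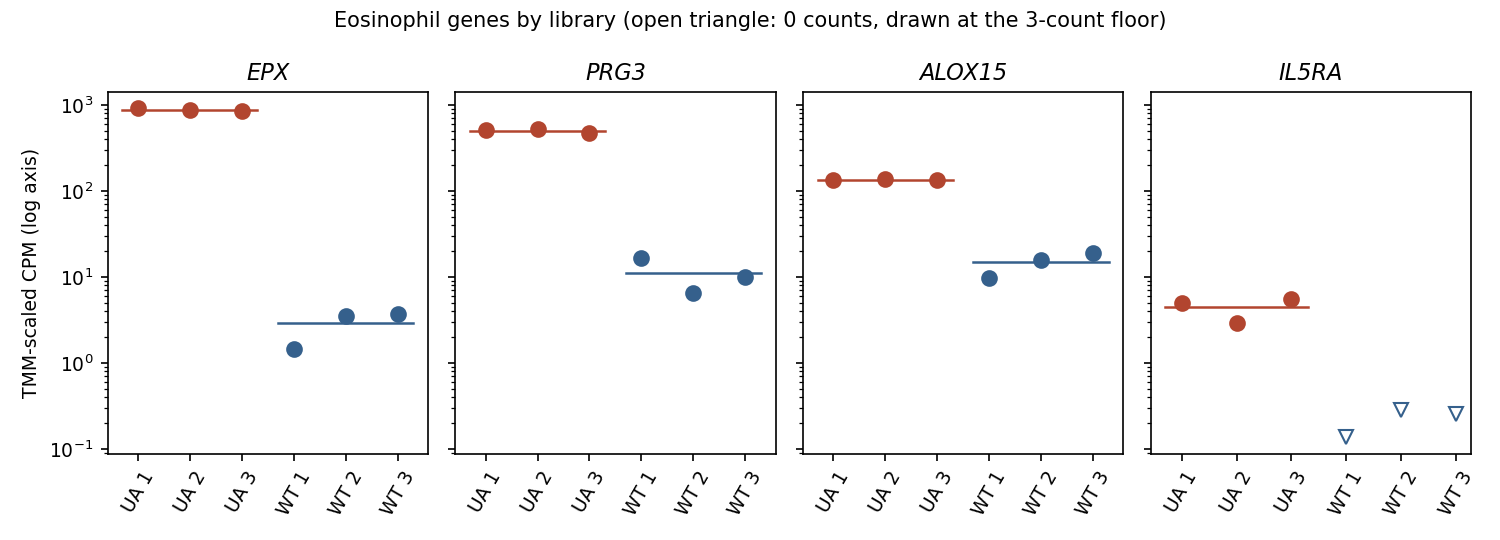
TMM-scaled CPM (log axis) of EPX, PRG3, ALOX15 and IL5RA in each library, with points for libraries and lines for group means. EPX averaged 877 CPM in UA and 2.90 CPM in WT, and the open triangles for IL5RA are WT libraries with 0 counts drawn at their limit of 3 counts.

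In these libraries EPX, PRG3 and ALOX15 did not change by equal amounts, while IL5RA, with only a lower bound, was not set against them. The ratio of 2 genes within a library is free of depth and scaling, so PRG3 and ALOX15 were set against EPX. There were 55.5, 59.8 and 55.5 PRG3 counts per 100 EPX counts in UA replicates 1 to 3, against 1131, 184 and 268 in WT replicates 1 to 3. EPX counts thus exceeded PRG3 counts in each UA library, and PRG3 counts exceeded EPX counts in each WT library. ALOX15 had 14.6, 15.8 and 15.9 counts per 100 EPX counts in UA, against 669, 443 and 514 in WT. On the log2 scale the PRG3 to EPX ratio differed by -2.73 and the ALOX15 to EPX ratio by -5.09 between UA and WT. Without WT replicate 1 the PRG3 to EPX difference was -1.95. These 2 ratios and the 3 to MPO were tested by a two-sided exact permutation test over the 6 libraries. Each exact permutation p was 0.1, the smallest that 3 against 3 allows, and 0.1 after Benjamini-Hochberg adjustment over the 5 ratios.

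MPO, myeloperoxidase, is the neutrophil relative of EPX and the most strongly expressed peroxidase gene of myeloid precursors. It had 16743 ± 147 CPM in UA and 810.4 ± 114 CPM in WT (SD, n = 3 each), a rise of 4.37 on the log2 scale (SE 0.16, edgeR adjusted p = 1.95e-08). EPX had 5.39, 5.30 and 5.02 counts per 100 MPO counts in UA replicates 1 to 3, against 0.214, 0.420 and 0.409 in WT replicates 1 to 3. The EPX share was therefore not a constant fraction of MPO across libraries, and on the log2 scale it was higher in UA by 3.96. PRG3 had 2.99, 3.17 and 2.79 counts per 100 MPO counts in UA, against 2.42, 0.772 and 1.10 in WT, a log2 difference of 1.22. ALOX15 had 0.789, 0.839 and 0.801 in UA, against 1.43, 1.86 and 2.10 in WT, a log2 difference of -1.14. Relative to MPO, EPX and PRG3 were thus higher in each UA library than in each WT library, whereas ALOX15 was lower, and WT replicate 1 came close to the UA libraries for PRG3.

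**Figure D2:**
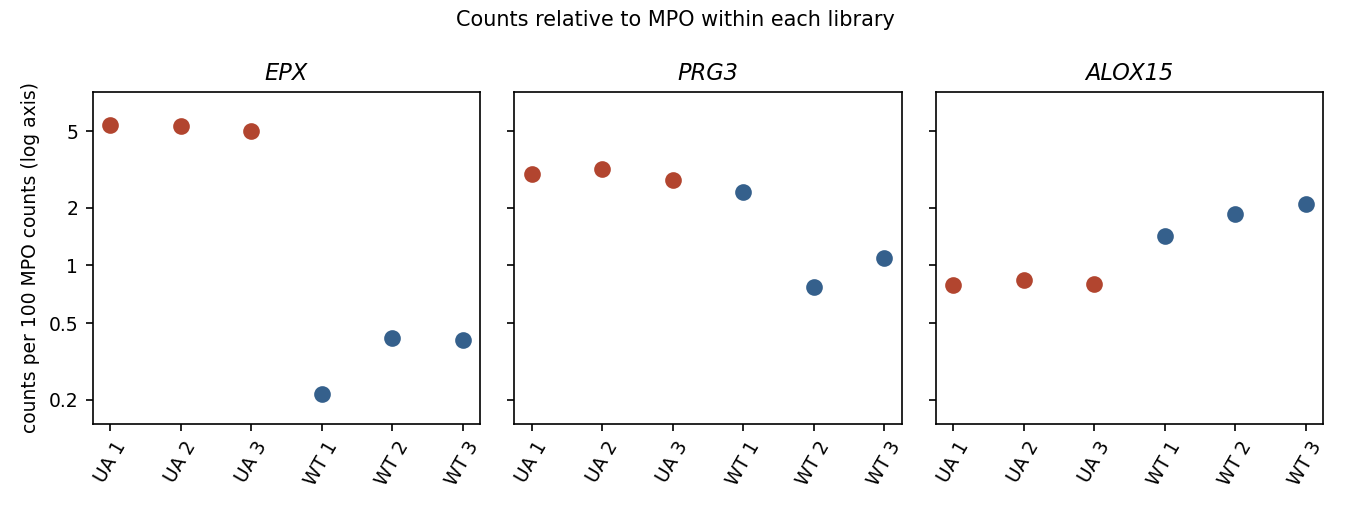
Counts of EPX, PRG3 and ALOX15 per 100 MPO counts (log axis) in each library. EPX sits between 5.02 and 5.39 in UA and between 0.214 and 0.420 in WT, and ALOX15 runs the other way, between 0.789 and 0.839 in UA and between 1.43 and 2.10 in WT.

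LPO and PXDN, relatives of EPX and MPO, had far fewer counts. LPO, lactoperoxidase, had 22 counts in UA and 0 in WT, at least 9.10-fold higher in UA, and did not pass the filter. Its entry overlaps that of MPO in the authors' deposited table, and the library kit does not mark strand. PXDN, peroxidasin of basement membranes, had 101 counts in UA and 2 in WT, a ratio of 62.7 between depth-scaled group totals with a 95% exact counting interval of 16.9 to 525. The interval covers counting error only and leaves out the spread between libraries. Both WT counts were in WT replicate 1, and without it PXDN was at 0 in WT.

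Beyond these genes, 73 genes were listed around eosinophils and the cell types closest to them, of which 60 matched a row and 51 were tested. Of the tested ones, 25 were higher and 12 lower in UA, beside 34.6% and 31.4% of all genes tested. These shares are also the background for the counts of each list below that come from the same fit. They are no background for counts with the UA libraries summed or without WT replicate 1, because those fits called other shares of all genes. The median log2 fold change of the listed genes was 0.67 beside 0.12 for all genes. With the UA libraries summed, 20 were higher and 10 lower.

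The remaining eosinophil granule genes were mostly out of reach. RNASE2, the eosinophil-derived neurotoxin, which monocytes also express, had 13.2, 9.33 and 8.71 CPM in UA replicates 1 to 3, against 0.822, 1.24 and 3.03 CPM in WT replicates 1 to 3. The groups did not overlap, and it rose by 2.65 on the log2 scale (SE 0.48, edgeR adjusted p = 0.000595). With single libraries left out the rise ran from 2.25 without WT replicate 1 to 3.33 without WT replicate 3. RNASE2 has a close copy in RNASE3, whose reads may be shared with it. RNASE3 and CLC, the Charcot-Leyden crystal protein, matched no row and were not analysed here.

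Surface receptors of eosinophils went in different directions. Of 10 listed besides IL5RA, 7 matched and 5 were tested, of which 2 were higher and 1 lower in UA, with a median log2 fold change of 0.67, and 1 was higher and 1 lower with the UA libraries summed. CSF2RB, named after its values were seen as the partner of IL5RA, is the β chain that IL5RA needs for signalling and that the interleukin-3 and GM-CSF receptors share. It had 63.4 ± 7.36 CPM in UA and 61.0 ± 15.5 CPM in WT (SD, n = 3 each). The log2 difference was 0.06 with an SE of 0.21, and it did not pass (edgeR adjusted p = 0.827). FCER1A, the α chain of the high-affinity IgE receptor, which basophils and mast cells carry in quantity, rose by 2.43 on the log2 scale (SE 0.23, edgeR adjusted p = 8.28e-06). IL1RL1, the interleukin-33 receptor, fell to 0.922 CPM in UA, against 12.2 CPM in WT, a log2 fold change of -3.63 (edgeR adjusted p = 3.93e-05).

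ADGRE1, in humans an eosinophil-restricted surface receptor, had 3.38 CPM in UA and 1.24 CPM in WT. Its log2 fold change of 1.43 passed (edgeR adjusted p = 0.0231), but not with any UA library left out (adjusted p = 0.0585 to 0.094) nor with the UA libraries summed (0.26). HRH4, a histamine receptor, had 3.14 CPM in UA and 1.96 CPM in WT (edgeR adjusted p = 0.272). Few or no counts were found for CCR3 and PTGDR2 in either group. CCR3, the eotaxin receptor, had 8, 5 and 0 counts in UA replicates 1 to 3 and 9, 0 and 0 in WT replicates 1 to 3. PTGDR2, a prostaglandin D2 receptor, had 1, 0 and 3 counts in UA and 0 in all 3 WT libraries, and neither gene passed the filter. SIGLEC8, CSF2RA and IL3RA matched no row.

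Among ligands, IL5, the cytokine that IL5RA binds, had 1.58 ± 0.790 CPM in UA and 0.674 ± 0.342 CPM in WT (SD, n = 3 each), which did not pass (log2 difference 1.19, SE 0.68, edgeR adjusted p = 0.146). CSF2, the GM-CSF gene, fell to 4, 1 and 0 counts in UA replicates 1 to 3, against 2152, 611 and 884 counts in WT replicates 1 to 3 (log2 fold change -9.03, edgeR adjusted p = 1.06e-07). CSF2 passed the filter through the WT libraries alone, so it had to differ once tested. UA replicate 1 held most of the UA counts of CSF2. Leaving it out gave -10.14, a value that rests on 1 UA count and depends on the prior count. The IL3 transcript had 0 counts in all 6 libraries. CCL11 and CCL26, eotaxins that attract eosinophils, did not pass the filter, and CCL24 matched no row.

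Transcription factors linked to eosinophil development were divided. Of 13 listed, 12 were tested, and 6 were higher and 3 lower in UA, beside 34.6% and 31.4% of all genes tested. Their median log2 fold change was 0.81. With the UA libraries summed, 4 were higher and 2 lower. GATA1, the factor that eosinophil commitment in mice depends on, had 17.6 ± 1.33 CPM in UA and 20.4 ± 3.42 CPM in WT (SD, n = 3 each), and did not pass (log2 difference -0.21, SE 0.22, edgeR adjusted p = 0.412). GATA2, its relative in early precursors, mast cells and basophils, had 68.6 CPM in UA and 115.2 CPM in WT (edgeR adjusted p = 0.0013). These GATA factors, CEBPA, CEBPE and XBP1 stood outside the rule for naming genes and are named after their values were seen. Whether each kept its call with the UA libraries summed was not checked. CEBPA, the granulocyte factor C/EBPα, had 11.6 CPM in UA and 2.41 CPM in WT (2.29 on the log2 scale, SE 0.41, edgeR adjusted p = 0.000542). CEBPE, C/EBPε of granule maturation, had 6.42 ± 2.23 CPM in UA and 4.29 ± 2.03 CPM in WT (edgeR adjusted p = 0.262). XBP1, a secretory stress factor that mouse eosinophils require, had 272 CPM in UA and 564 CPM in WT (-1.05 on the log2 scale, edgeR adjusted p = 9.26e-05).

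TRIB1, a pseudokinase that promotes breakdown of C/EBPα, showed the largest rise in that list, with 129 ± 12.3 CPM in UA and 9.51 ± 2.35 CPM in WT (SD, n = 3 each), or 3.77 higher on the log2 scale (SE 0.22, edgeR adjusted p = 3.39e-07). IRF8, which favours monocytes and dendritic cells, rose by 2.13 and NFIL3, a basic leucine zipper factor, by 2.07 on the log2 scale. SPI1, the factor PU.1 of all myeloid lineages, fell to 62.6 CPM in UA, against 174 CPM in WT.

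Genes that work with ALOX15 did not rise with it as a group. Of 12 listed lipid mediator and interleukin-4 signalling genes, 8 were tested, 1 was higher and 2 were lower in UA, and the median log2 fold change was -0.016. Without WT replicate 1, 1 was higher and 4 were lower. The 5-lipoxygenase partner ALOX5AP fell to 26.1 ± 2.68 CPM in UA, against 149 ± 35.6 CPM in WT (SD, n = 3 each, log2 fold change -2.51, SE 0.21, edgeR adjusted p = 2.9e-06). IL4R, the receptor chain shared by interleukin-4 and interleukin-13, fell to 48.7 CPM in UA, against 125 CPM in WT (-1.36 on the log2 scale, edgeR adjusted p = 9.59e-05). PTGS2, the inducible cyclooxygenase, rose to 443 ± 12.3 CPM in UA, against 152 ± 75.8 CPM in WT (edgeR adjusted p = 0.00152). GPX4, which reduces the lipid peroxides that lipoxygenases make, had 125 CPM in UA and 166 CPM in WT and did not pass (edgeR adjusted p = 0.0576). IL13 had 0 counts in all 6 libraries, and IL4 and ALOX15B did not pass the filter.

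Among markers of neighbouring lineages, the neutrophil genes and most mast cell and basophil genes moved with the eosinophil genes. Those of interleukin-4-activated macrophages went both ways. The part of these lineages in the result was not tested. All 5 neutrophil primary granule genes tested were higher in UA, with a median log2 fold change of 4.15. Their summed level ran from 24250 to 25103 CPM in UA and from 1182 to 1295 CPM in WT libraries. ELANE, neutrophil elastase, had a log2 fold change of 5.04, CTSG, cathepsin G, of 4.15 and AZU1, azurocidin, of 3.39 (SE 0.18, 0.18 and 0.22). The 5 ran from 2.56 to 5.04, and the lowest was MS4A3, which is also on the mast cell and basophil list. PRG3 at 5.47 and EPX at 8.31 lay above this range. ALOX15 at 3.20 lay above MS4A3 alone and below AZU1, the next lowest at 3.39. These differences were not tested.

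Of 6 mast cell and basophil genes tested, 5 were higher in UA and none lower, with a median log2 fold change of 1.26, and 3 were higher with the UA libraries summed. Their summed level was 330 to 340 CPM in UA and 118 to 134 CPM in WT libraries. MS4A3, of granulocyte precursors and basophils, rose by 2.56, CMA1, mast cell chymase, by 1.87, and MS4A2, the β chain of the IgE receptor, by 1.15 on the log2 scale. HDC, outside the naming rule and picked with its values known, was the tested gene not called. It had 29.8 CPM in UA and 36.6 CPM in WT (edgeR adjusted p = 0.16). ENPP3, a surface ectoenzyme of basophils, had a log2 fold change of 1.36 (edgeR adjusted p = 0.00323, and 0.0565 with the UA libraries summed).

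Genes of interleukin-4-activated macrophages, another source of ALOX15, gave 3 higher and 3 lower among 7 tested, with a median log2 fold change of -0.14. Their summed level was 394 to 397 CPM in UA and 87.9 to 127 CPM in WT, most of it in UA from F13A1, coagulation factor XIII A, with 346 CPM in UA and 34.4 CPM in WT. CD209, the lectin DC-SIGN, had 128 counts in UA and 0 in WT, at least 53.0-fold higher in UA. Like IL5RA, it passed the filter through the UA libraries alone, so it had to differ once tested. CCL18, a chemokine, fell to 0.828 CPM in UA, against 14.9 CPM in WT, a log2 fold change of -4.00, or -4.82 without UA replicate 1, and CD200R1, an inhibitory receptor, to 4.50 CPM in UA, against 27.6 CPM in WT. The chemokine CCL13 did not pass the filter. The mannose receptor MRC1, outside the naming rule and picked with its values known, had 26.6 ± 3.78 CPM in UA and 29.3 ± 10.2 CPM in WT (SD, n = 3 each, edgeR adjusted p = 0.672).

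Of 6 granule packaging genes, 3 were higher and 2 lower in UA, and the median of their log2 fold changes was 0.86. With the UA libraries summed, 3 were higher and 1 lower. SRGN, the proteoglycan serglycin that binds cationic granule proteins, rose to 1199 ± 40.7 CPM in UA, against 279 ± 23.2 CPM in WT (SD, n = 3 each, log2 fold change 2.10, SE 0.14, edgeR adjusted p = 7.25e-07). SERPINB10, an intracellular protease inhibitor of marrow cells, and CST7, cystatin F, rose by 3.92 and 2.43 on the log2 scale. CD63, a tetraspanin of granule membranes, fell by 1.06.

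**Figure D3:**
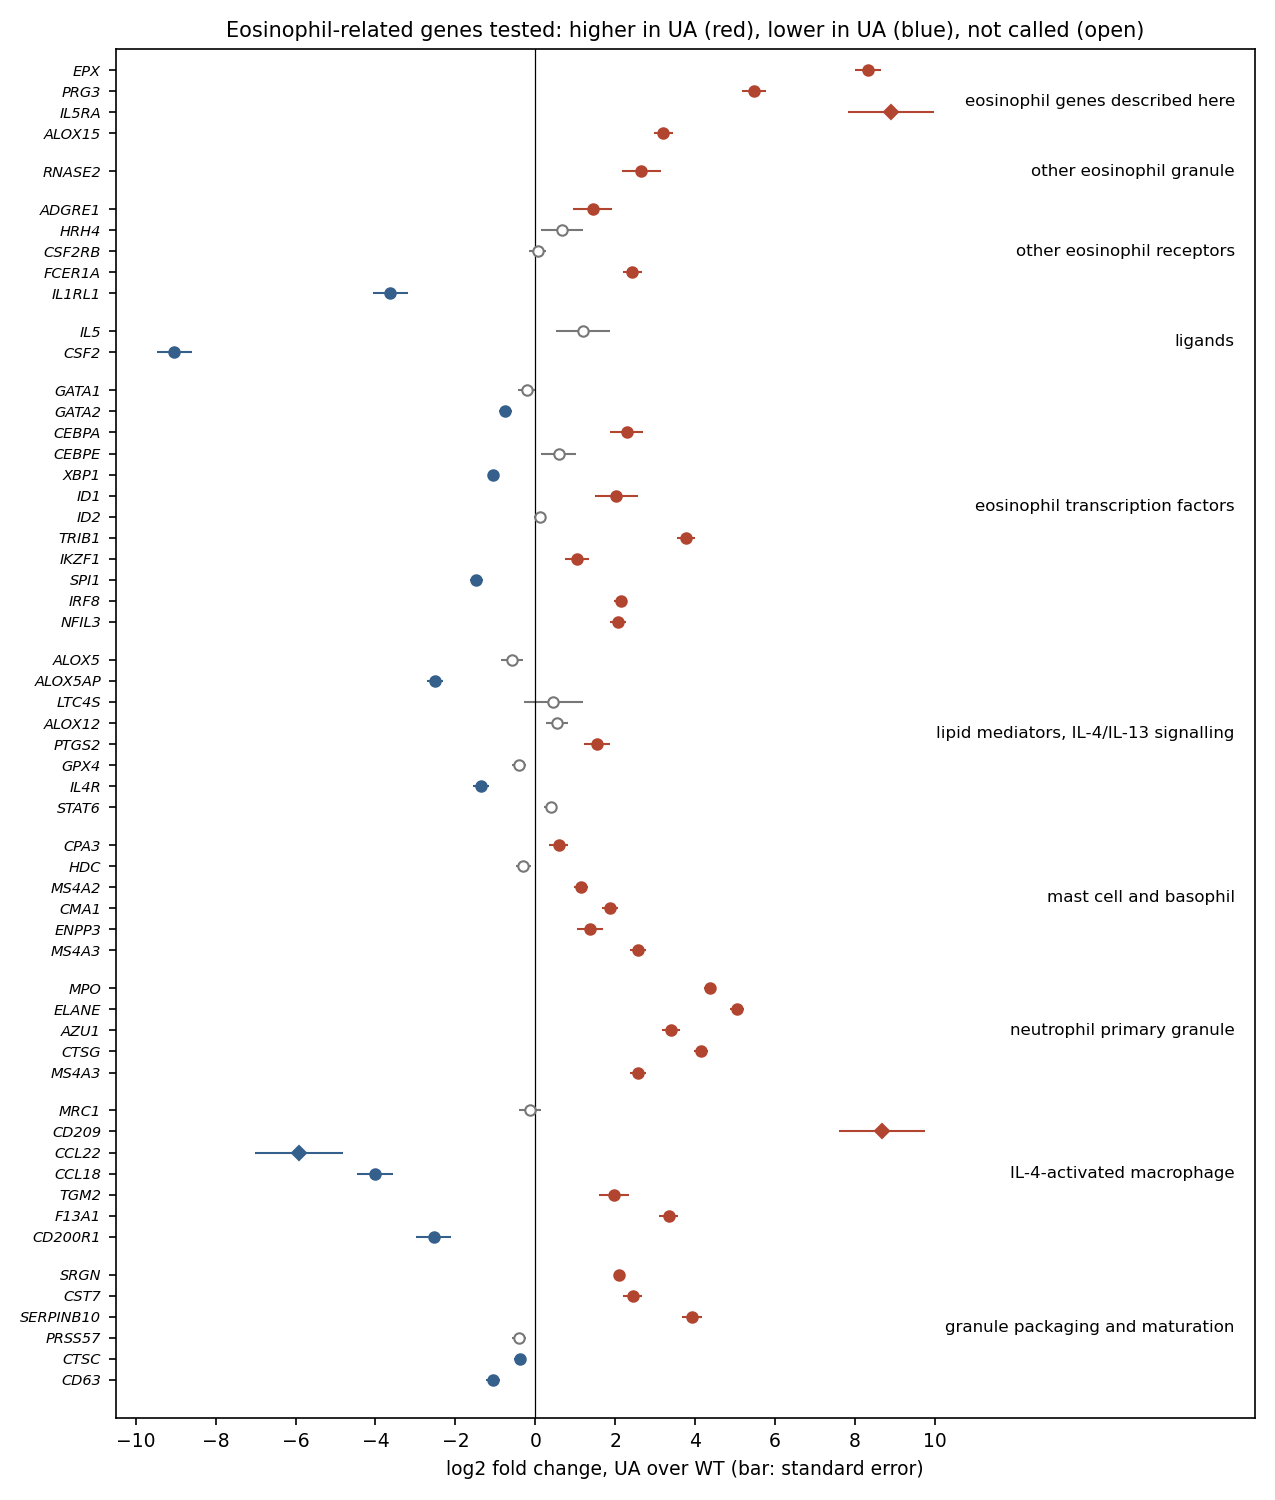
Log2 fold change of UA over WT (x axis, bars are standard errors) for the 4 eosinophil genes and each tested gene of the lists, in red where higher in UA, blue where lower and open where not called. Diamonds mark genes with 3 counts or fewer in a whole group, whose fitted value depends on the prior count, and EPX at 8.31 lies beyond all neutrophil granule genes.

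Gene profiles most like each member were ranked by the root mean square distance between centred log2 CPM over the 6 libraries, among genes with a symbol and a mean of at least 5 CPM. This measure takes in the size of the UA to WT difference as well as the order of libraries, and it is a description with no test. EPX was closest to AKAP12, COL6A3 and PPBP, at distances of 0.27, 0.39 and 0.41. PRG3 was closest to IRS2, GP1BB and STAB2, at 0.15, 0.26 and 0.26, and ALOX15 to F13A1, S1PR1 and CLASP1, at 0.083, 0.092 and 0.094. IL5RA was closest to CNTN2, PER1 and ELANE, at 0.15, 0.29 and 0.31, distances that depend on the prior count because IL5RA had 0 counts in WT. None of these genes is on the eosinophil lists, while ELANE is on the neutrophil list and F13A1 on the macrophage list. For EPX and PRG3 this absence followed from the measure, because no tested gene on the eosinophil lists rose by as much. The largest rise there was 3.77, for TRIB1.

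For the 3 members with counts in both groups the fold changes were recomputed under other settings of the processing. Over 14 alternatives the log2 fold change ranged from 7.89 to 8.52 for EPX, from 5.22 to 5.89 for PRG3 and from 2.94 to 3.39 for ALOX15, and each stayed called in all 14. The largest adjusted p was 4.46e-06 for EPX, 3.99e-05 for PRG3 and 3.19e-05 for ALOX15. The fitted log2 fold change of IL5RA, which depends on the prior count because WT had 0 counts, ran from 6.93 to 9.50 over the 13 alternatives that tested it.

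**Figure D4:**
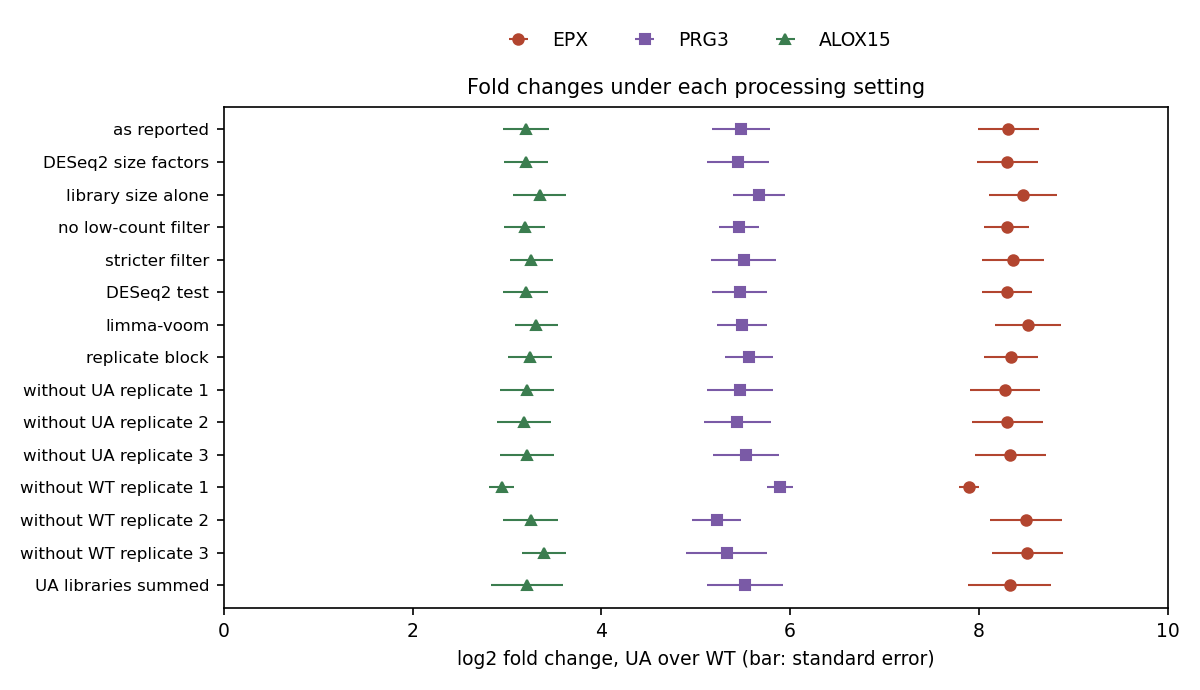
Log2 fold change of UA over WT (x axis, bars are standard errors) for EPX, PRG3 and ALOX15 under each processing setting (rows). The points for EPX lie between 7.89 and 8.52, those for PRG3 between 5.22 and 5.89 and those for ALOX15 between 2.94 and 3.39, and the lowest EPX and ALOX15 values are those without WT replicate 1.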

How the data were processed

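RNA of 6 single colonies was made into cDNA with the SMART-Seq V4 kit and into Nextera XT libraries, per the labels' protocols. This kit marks neither strand nor molecule. The submitters' processing notes name the build Mmul_8.0.1 and bcl2fastq, with no aligner or counter given in the sources used here. Raw counts per gene, as deposited by the authors with no normalization, were used, with all 6 columns matched to labels by title. They also deposited a table with a mean of normalized counts (signal), a log2 fold change, its standard error, a test statistic (score) and p-values, per the file headers. The libraries it compares are not named, so only its symbols and coordinates were used, apart from values given in the closing section.

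Symbols came from row names (2529 rows), the deposited table (9226) and a gene name table (7223), while 13408 rows had none, and for a symbol on several rows the row of highest total was used. Genes were filtered with edgeR 4.0.16 (filterByExpr, minimum count 10, minimum total 15) in R 4.3.3, scaled by TMM (factors 0.86 to 1.07) and tested by the robust quasi-likelihood F-test with the label as the only term. Benjamini-Hochberg adjustment ran over 13768 genes, with 0.05 as the threshold. SE is the log2 fold change over the square root of F. Members are tested in the same fit, and lists are described by counts and medians. Ratios within a library had 0.5 counts added on the log2 scale.

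The members and lists were chosen with earlier results of these data known. Named genes are the members, up to 4 listed genes of smallest p per list, listed genes that failed the filter, the peroxidases MPO, LPO and PXDN, TET2 and the 3 nearest profiles per member. Alternatives were DESeq2 1.42.0 (size factors and test), limma 3.58.1 (voom), library size alone, no filter, at least 5 CPM in 3 libraries, a replicate block, each library left out and the UA libraries summed. List counts without WT replicate 1 and with UA summed were added after the data were seen. Promoter and protein sequences were not used here. The limit set by 3 counts was 0.137 CPM in the deepest and 0.443 CPM in the shallowest library.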

Additional observations from a re-analysis of the deposited data

How the results depend on the processing

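All but 3 of the alternative values for gene counts, members, list totals and ratios kept their direction and side of the threshold or stayed within 1.5 times or 1 SD, 159 in all. With the UA libraries summed, 2950 genes were higher and 2410 lower in UA, against 4770 and 4321 with 3 UA libraries. With single libraries left out, the IL5RA bound ran from 32.9-fold to 76.0-fold, lowest without WT replicate 1, because fewer WT reads make the bound smaller. Under the filter of at least 5 CPM in 3 libraries IL5RA was not tested. Among listed genes, ADGRE1 lost its call in 6 of 13 alternatives, ENPP3 in 1 of 14 and GPX4 gained one in 4 of 14. Library size alone moved the median of all genes by 0.16 on the log2 scale and turned no direction among the members. Replicate numbers did not pair the libraries, with correlations of deviations of 0.0129, 0.022 and 0.0132 for equal numbers. With the replicate block, 4765 genes were higher and 4174 lower in UA, and EPX had a log2 fold change of 8.34, PRG3 of 5.57 and ALOX15 of 3.25. IL5RA, CCR3, PTGDR2 and the WT level of EPX rest on few counts.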

Other observations

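Genes beside the members on the chromosome, taken in the order of the RefSeq gene table of a newer rhesus assembly and chosen after the data were seen, did not share one direction. MKS1, a ciliary gene between LPO and EPX, had 22.1 CPM in UA and 19.0 CPM in WT (log2 fold change 0.22, SE 0.21, edgeR adjusted p = 0.388). SLC43A3, a nucleobase transporter on the far side of PRG2 from PRG3, had 1987 CPM in UA and 525 CPM in WT (log2 fold change 1.92, SE 0.14, edgeR adjusted p = 1.63e-06). P2RX3, an ATP-gated channel next to PRG3, had 58 counts in UA and 3 in WT, a ratio of 24.0 with a 95% exact counting interval of 7.82 to 120. That interval too leaves out the spread between libraries. SSRP1, a histone chaperone beyond it, fell by 0.72 on the log2 scale (SE 0.14, edgeR adjusted p = 0.00105). PELP1, beside ALOX15, rose by 0.60 (edgeR adjusted p = 0.0495), while TRNT1 and CRBN, beside IL5RA, fell by 0.63 and 0.55, and ARRB2, near ALOX15, fell by 1.16.

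The authors' deposited table of differential expression does not correspond to the deposited counts. In the authors' deposited table EPX has a mean normalized count of 35.0 and a log2 fold change of -3.96, IL5RA 64.4 and -3.50, and ALOX15 374 and 1.23, with the compared groups not named. The mean normalized counts computed from the 6 libraries with DESeq2 size factors were 5308 for EPX, 27.1 for IL5RA and 908 for ALOX15. Over the 16620 genes present in both, 44 means (0.265%) lay within 1% of each other. PRG3 has no entry in the authors' deposited table under that symbol.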
